A study of Mus musculus with 8 samples.

Results

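Type 2 immunity is the branch of the immune response in which helper T cells and innate lymphoid cells release the cytokines IL-4, IL-5 and IL-13. IL-5 supports the growth and survival of eosinophils, while the eotaxins, chemokines that bind the receptor CCR3, draw these cells into tissue. IL-4 and IL-13 act through STAT6 on macrophages, fibroblasts and epithelium, and eosinophils that enter a tumor can release granule proteins that harm nearby cells. The genes described here are 10 members of this branch: the cytokines Il4, Il5 and Il13, the eotaxins Ccl11 and Ccl24, the receptors Ccr3 and Il5ra, the granule proteins Prg2 and Epx, and the lipoxygenase Alox15. They were chosen by name, as all non-control probes that carry one of these names, and make up 10 of the 36677 gene names on the array. The question asked of them is whether a type 2 response goes with the treatments.

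CT26, a colon carcinoma line of BALB/c mice, was grown under the skin from 500000 implanted cells, in hosts with an intact immune system that the methods describe as female and 6 to 10 weeks old. Treatment lasted 2 weeks and made 4 groups with 2 arrays each: vehicle, TP-16, an antibody against PD-1 (called anti-PD-1 below), and TP-16 together with this antibody (the combination). TP-16 (BY001) is an antagonist of the prostaglandin E2 receptor EP4 and was given by mouth at 75 mg/kg every day. PD-1 is a checkpoint receptor of T cells, and the antibody was injected into the peritoneum at 50 µg per mouse, 2 doses per week. It is not stated if each sample comes from 1 tumor or from pooled tumors, so the p-values may measure only the spread between these samples.

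RNA from whole tumors was hybridized to 8 one-colour Agilent arrays, all on 1 slide. A level is given below as the log2 intensity of a probe minus the log2 of the array's 75th percentile, so that 0 is the level of a spot at that percentile. That percentile was an intensity of 574.9 and 581.8 with vehicle, 615.6 and 632.3 with anti-PD-1, 813.8 and 848.9 with TP-16, and 925.8 and 1124 with the combination. The arrays with TP-16 were therefore the brighter ones, and on the slide the column pairs go with TP-16 and the rows with the antibody, so that layout and treatment cannot be told apart. Between 51.4% and 59.7% of probes were well above background on an array, a mark set by the scanner software, and the lowest level so marked lay between −5.55 and −4.44. Replicate arrays correlated across probes at 0.978 with vehicle, 0.988 with TP-16, 0.991 with anti-PD-1 and 0.992 with the combination, and the vehicle replicates were thus the least alike. The number of arrays limits the precision: an exact two-sided permutation test of 2 against 2 arrays cannot go below p = 0.333, so limma's test, which pools the spread over all 8 arrays and across probes, was used.

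The members differed widely in how well they could be read. Ccl11 and Ccl24 were well above background on all 8 arrays, Ccr3 on 7, Il5ra and Il13 on 6, Alox15 and Prg2 on 2, Il4 on 1, and Il5 and Epx on 0. Tests were limited to probes with this mark on both replicates of some group, which 6 of the 10 members passed: Ccl11, Ccl24, Ccr3, Il5ra, Il13 and Alox15. A member is said to rise or fall where its fold change was at least 2 with an unadjusted limma p no higher than 0.05, the sizes of fold and p that the study used with another test, and the p adjusted over all 31912 tested probes is given beside it. The fitted fold decides this also where a group at background leaves only a limit, which can then be under 2. Since the arrays hold bulk tissue, fewer cells of a type and less RNA per cell cannot be told apart in any of these values.

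**Figure D1:**
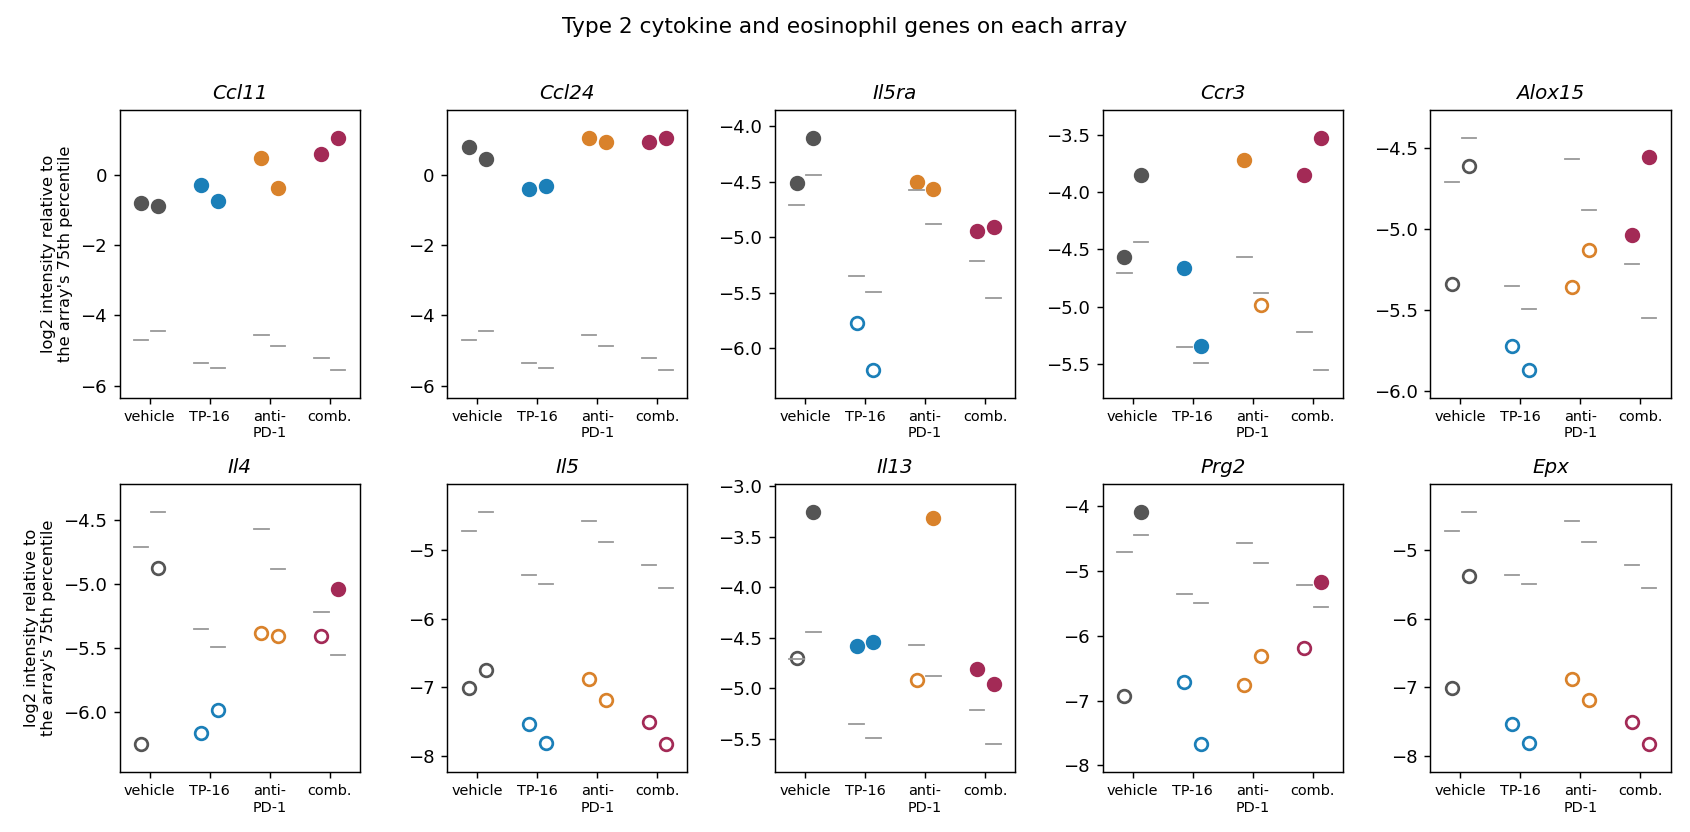
Level of each of the 10 members (log2 intensity minus that of the 75th percentile, own vertical scale per panel) on the 2 arrays of each group. Filled circles are well above background, open circles are not, and the short grey line is the lowest level so marked on that array. Ccl11 reached 0.59 and 1.06 with the combination against −0.79 and −0.89 with vehicle, while Il5 and Epx stayed in the open circles on all 8 arrays.

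The eotaxins were the members with strong signal, and they did not share a pattern. Ccl11 (eotaxin-1, a chemokine made largely by fibroblasts and epithelium) stood at −0.79 and −0.89 with vehicle, −0.28 and −0.75 with TP-16, 0.49 and −0.37 with anti-PD-1, and 0.59 and 1.06 with the combination. Every treated array lay above both vehicle arrays, and both combination arrays lay above the other 6. The group means ± SD (n = 2) were −0.84 ± 0.08, −0.52 ± 0.33, 0.06 ± 0.61 and 0.82 ± 0.34 in the same order. Ccl11 rose 3.17-fold with the combination (log2 difference 1.66, standard error 0.33, 95% confidence interval 0.84 to 2.48, limma adjusted p of 0.0189). It was the 1 member that passed the adjusted p against vehicle. With TP-16 alone the log2 difference was 0.33 (standard error 0.33, adjusted p of 0.569). With anti-PD-1 alone it was 0.90 (adjusted p of 0.336), under the fold of 2, although without anti-PD-1 replicate 2 it came to 1.33 and passed the unadjusted threshold, and without anti-PD-1 replicate 1 it was 0.47. The combination value also passed the unadjusted threshold under every alternative calculation run. Its adjusted p ranged from 0.0051 to 0.182 over these alternatives, and was 0.115 without combination replicate 2 and 0.0602 without vehicle replicate 2.

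Ccl24 (eotaxin-2, a CCR3 ligand that macrophages make) stood at 0.80 and 0.47 with vehicle, −0.40 and −0.31 with TP-16, 1.06 and 0.94 with anti-PD-1, and 0.93 and 1.06 with the combination. The TP-16 arrays were the low ones, apart from all 6 others, and the groups that received the antibody lay just above vehicle. The means ± SD (n = 2) were 0.63 ± 0.23, −0.36 ± 0.06, 1.00 ± 0.09 and 0.99 ± 0.09. With TP-16 the log2 difference from vehicle was −0.99 (standard error 0.15, 95% confidence interval −1.35 to −0.63, adjusted p of 0.0657), a 1.98-fold lower level that missed the fold of 2. Without vehicle replicate 2 it was −1.15, and without TP-16 replicate 2 it was −1.03, both past the unadjusted threshold. Anti-PD-1 gave 0.37 (adjusted p of 0.350) and the combination 0.36 (adjusted p of 0.107). The eotaxin genes thus stood apart under TP-16 alone, where Ccl24 was lower than in any other group and Ccl11 was not.

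The receptors that make a cell respond to these signals were dim. Ccr3 (the eotaxin receptor, carried chiefly by eosinophils) stood at −4.57 and −3.85 with vehicle, −4.67 and −5.34 with TP-16, −3.72 and −4.99 with anti-PD-1, and −3.85 and −3.53 with the combination. The groups overlapped or met, except that both TP-16 arrays lay below both vehicle arrays and both combination arrays. Against vehicle the log2 differences were −0.79 with TP-16 (standard error 0.49, adjusted p of 0.346), −0.14 with anti-PD-1 (adjusted p of 0.912) and 0.52 with the combination (adjusted p of 0.438). None of these 3 passed the threshold, and the combination value was −0.18 with another background correction.

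Il5ra (the IL-5 binding chain of the IL-5 receptor) stood at −4.51 and −4.10 with vehicle, −5.77 and −6.20 with TP-16, −4.50 and −4.56 with anti-PD-1, and −4.94 and −4.90 with the combination. The TP-16 arrays were the lowest and the only ones not well above background. Il5ra entered the tests through the other groups, so its comparisons with the TP-16 group are descriptions. Il5ra fell with TP-16 by at least 2.17-fold, taking the lowest level marked above background as the limit (limma adjusted p of 0.0569). The TP-16 arrays were the lowest before scaling too, at intensities of 14.87 and 11.58, against 25.26 and 33.89 with vehicle, 27.13 and 26.72 with anti-PD-1, and 30.17 and 37.53 with the combination, whose place among the groups changed with the scaling. Under quantile normalization the fitted TP-16 difference shrank from −1.68 to −0.82 and no longer passed the fold of 2. The difference from vehicle was −0.23 with anti-PD-1 (adjusted p of 0.604) and −0.62 with the combination (adjusted p of 0.0600), and both turned positive under quantile normalization, at 0.25 and 0.085. A further Il5ra probe, with the same transcript accession, was not above background on any array and gives no value.

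Of the 3 cytokines, Il13 alone was read on more than 1 array. IL-13 acts on epithelium and macrophages, and its gene stood at −4.70 and −3.26 with vehicle, −4.58 and −4.54 with TP-16, −4.91 and −3.32 with anti-PD-1, and −4.81 and −4.96 with the combination. A single vehicle array and a single anti-PD-1 array were high, with intensities of 60.83 and 63.40 against 20.42 to 36.49 on the other 6, and their replicates were not above background. The log2 differences from vehicle were −0.58 with TP-16 (standard error 0.64, adjusted p of 0.595), −0.14 with anti-PD-1 (adjusted p of 0.938) and −0.90 with the combination (adjusted p of 0.311). The spread between replicates, 1.02 with vehicle and 1.13 with anti-PD-1, was larger than each of these differences. The combination value was −1.63 without vehicle replicate 1, past the unadjusted threshold, and −0.18 without vehicle replicate 2.

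Il4, the cytokine that commits helper T cells to the type 2 fate, ranged from −6.25 to −4.88 over the 8 arrays and was above background on 1, combination replicate 2, at −5.04. It was not tested, and no fold is given. Il5, the eosinophil growth factor, had intensities of 3.77 to 5.40 on all 8 arrays, under the lowest intensity marked above background on any of them (18.9). These arrays thus hold no readable Il5 signal in any group, which is not the same as an absence of Il5.

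The genes of these 3 cytokines lie side by side on chromosome 11. In the mm9 build of the array annotation the Il4 probe is at chr11:53426076-53426135, the Il13 probe at chr11:53445564-53445623 and the Il5 probe at chr11:53538345-53538404, a span of 112 kb. Rad50, a DNA repair gene with a probe at chr11:53463096-53463155 between Il13 and Il5, was well above background on all 8 arrays and was named after its values were seen. Of 9 neighbours within the region, 8 were tested. Anti-PD-1 raised 2 and lowered 0, the combination raised 1 and lowered 0, and TP-16 changed 0 at this threshold. Of all tested probes, 1.72% rose with anti-PD-1, 6.26% rose with the combination, and 6.09% changed with TP-16. Irf1, an interferon-induced transcription factor gene, rose by 1.64 with the combination (log2 difference, limma adjusted p of 0.0295; 1.03 without vehicle replicate 1 and 2.25 without vehicle replicate 2), and P4ha2, a collagen prolyl hydroxylase gene, rose by 1.04 with anti-PD-1 (adjusted p of 0.165). Rad50 differed from vehicle by 0.23 with the combination (adjusted p of 0.173). The median log2 difference of the 8 neighbours with the combination was 0.02, against −0.19 for all tested probes. In all, 6 of the 10 members have probes on chromosome 11, the 3 cytokines together with Ccl11, Epx and Alox15.

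Prg2 and Epx code for granule proteins of eosinophils, and the arrays read their RNA, not the stored protein. Prg2 (major basic protein) was above background on vehicle replicate 2, at −4.09, and on combination replicate 2, at −5.17, while the other 6 arrays lay between −7.67 and −6.19. Epx (eosinophil peroxidase) was between −7.83 and −5.37 and above background on 0 arrays. No fold change can be given for either, and no group had both arrays above background.

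Alox15, the 12/15-lipoxygenase that IL-4 and IL-13 induce in macrophages and that eosinophils also carry, was above background on the 2 combination arrays, at −5.04 and −4.56, and on no other. The vehicle arrays stood at −5.34 and −4.61, TP-16 at −5.72 and −5.87, and anti-PD-1 at −5.36 and −5.13. It entered the tests through the combination alone, the group where it was read, so its comparisons are descriptions. Against TP-16 the combination was at least 1.54-fold higher by the background limit, without passing the threshold (adjusted p of 0.153). Against vehicle no fold can be given, because the limit lies at or above the combination's level. With quantile normalization, and with the authors' log2 values, Alox15 passed the threshold for the combination against vehicle.

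The counts of members can be set beside those of all probes. TP-16 changed 1 of the 6 tested members, Il5ra, downward. Of all tested probes, 6.09% changed with TP-16, 1.6% upward and 4.49% downward, and 0.0533% passed the adjusted p, among which no member. Anti-PD-1 changed 0 of the 6 by limma, where 3.83% of probes changed, 1.72% upward, and 0.0721% passed the adjusted p. With anti-PD-1 2 of the 6 had an unadjusted limma p under 0.05 at any fold, as had 4502 of all 31912 tested probes. The combination changed 1 of the 6, Ccl11, upward, where 15.1% of probes changed, 6.26% upward and 8.79% downward, and 12.3% passed the adjusted p. By limma 0 probes passed the adjusted p without combination replicate 2 (2944 passed the unadjusted threshold) and 0 in a fit of the 2 groups alone (4555 unadjusted), which bears on every adjusted p of this comparison. Median log2 differences of the tested members were −0.81 with TP-16, −0.14 with anti-PD-1 and 0.27 with the combination, against −0.12, −0.09 and −0.19 for all tested probes. Those members passed a filter on level, and a dim gene could pass it through the group where it is high, so the medians are descriptions.

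The comparison of the combination with each single agent asks what the other agent adds. Against TP-16 alone, 4 of the 6 tested members were higher with the combination by the fit (Ccl11, Ccl24, Ccr3, and Il5ra, whose limit is under a fold of 2) and 0 were lower, where 4.36% of tested probes changed and 3.57% were higher. The size was similar across the 3 measured on a log2 scale. Ccl24 rose 2.55-fold (log2 difference 1.35, standard error 0.15, limma adjusted p of 0.0892). Ccl11 rose 2.53-fold (1.34, adjusted p of 0.141). Ccr3 rose 2.49-fold (1.31, adjusted p of 0.203). Il5ra was at least 1.41-fold higher by the background limit (adjusted p of 0.122). None of the 4 passed the adjusted p in limma, nor did any of the 31912 probes (0%). At any fold 5 of the 6 members had an unadjusted limma p under 0.05, as had 6917 of all 31912 tested probes. Alox15, among the 5, entered the tests through the combination alone. In each of the 4 both combination arrays lay above both TP-16 arrays. For Ccl24 and Il5ra the TP-16 arrays were the low ones of the 4 groups, and for Ccl11 the combination arrays were the high ones. Without TP-16 replicate 2 the count was 2, Ccl11 and Ccl24.

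Against anti-PD-1 alone, 0 of the 6 members changed by limma, where 4.31% of probes changed and 0.0157% passed the adjusted p. An unadjusted limma p under 0.05 at any fold was found for 0 of the 6, and for 8223 of all 31912 tested probes. Ccl24 was at the same level in both groups (log2 difference −0.0029, 95% confidence interval −0.36 to 0.36). Ccl11 differed by 0.76 (standard error 0.33, adjusted p of 0.217). Without anti-PD-1 replicate 1 the count was 3: Ccl11, Ccr3 and Il13.

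Departure from additivity is the combination minus both single agents plus vehicle on the log2 scale, and it is 0 when the effects of the agents add up. Ccl11 departed by 0.44 (standard error 0.47, 95% confidence interval −0.72 to 1.60, limma adjusted p of 0.892), which cannot be told from 0 at this precision. Ccl24 departed by 0.98 (standard error 0.21, adjusted p of 0.433): the sum of the single effects lies below vehicle, and the combination lay above it. By the fit 2 members passed the unadjusted threshold, Il5ra and Alox15, both of which rest on groups at background and so get no value here. Of all tested probes 3.18% passed it and 0% passed the adjusted p.

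**Figure D2:**
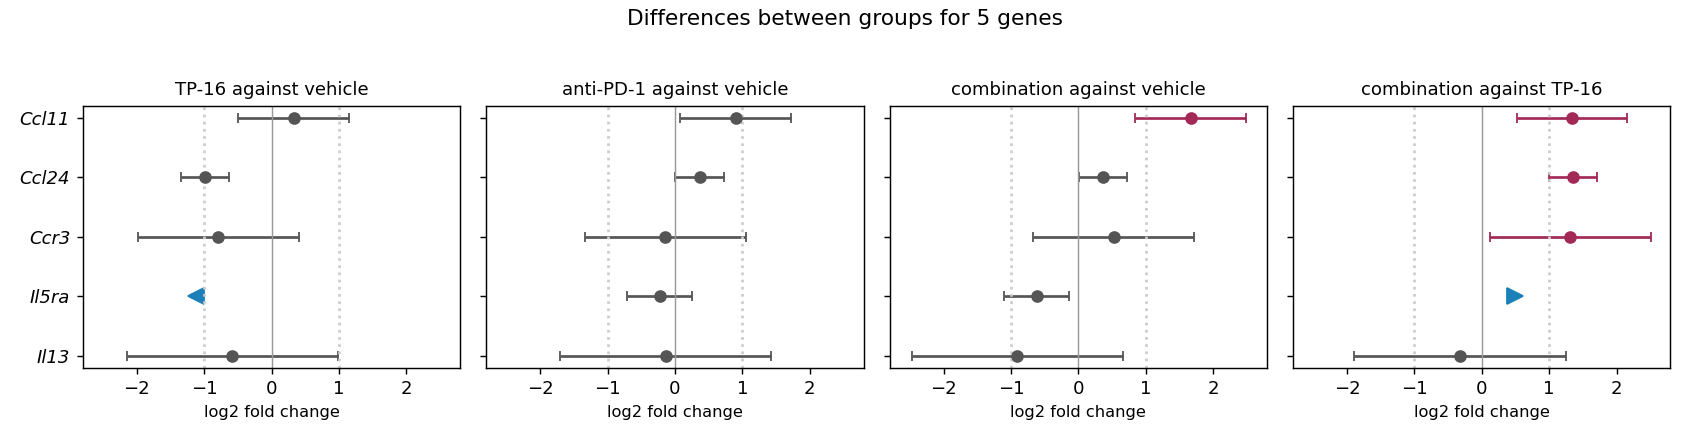
Log2 differences (points, with 95% confidence intervals as bars, n = 2 arrays per group) of 5 members in 4 comparisons. Triangles mark the limit for Il5ra where TP-16 was at background, dotted lines mark a fold of 2, and coloured marks passed the unadjusted threshold. Ccl11 stands at 1.66 with the combination against vehicle, and Ccl11, Ccl24 and Ccr3 lie between 1.31 and 1.35 against TP-16.

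Further genes of eosinophils were measured beside the members. Among 13 such genes on the array, 10 were tested. The combination raised 7 and lowered 0, anti-PD-1 raised 5 and lowered 0, and TP-16 raised 4 and lowered 0. The median log2 difference of the 10 was 1.61 with the combination, 1.08 with anti-PD-1 and 0.69 with TP-16, against −0.19, −0.09 and −0.12 for all tested probes. Ear2, a ribonuclease gene of eosinophil granules and of macrophages, stood at −3.27 and −3.23 with vehicle, −1.39 and −0.68 with TP-16, −1.15 and −1.34 with anti-PD-1, and −0.49 and −0.27 with the combination. All 6 treated arrays lay above both vehicle arrays, and the combination arrays were the highest. Ear2 rose by 2.87 with the combination (log2 difference, standard error 0.24, limma adjusted p of 0.0112), by 2.22 with TP-16 (adjusted p of 0.0516) and by 2.00 with anti-PD-1 (adjusted p of 0.139). The related Ear10 rose by 2.18 (adjusted p of 0.0123) and Ear1 by 1.95 (adjusted p of 0.0119) with the combination. Their 60-base probes share no run longer than 7 bases with each other, which does not exclude that 1 transcript binds to more than 1 of them.

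Siglecf, a surface lectin used to recognize mouse eosinophils, was not above background on either vehicle array (−6.28 and −5.37). It stood at −3.82 and −4.84 with TP-16, −3.25 and −4.21 with anti-PD-1, and −3.18 and −2.74 with the combination, above background on all 6. Siglecf rose by at least 3.06-fold with the combination (limma adjusted p of 0.0149), by at least 1.79-fold with anti-PD-1 (adjusted p of 0.257) and by at least 1.19-fold with TP-16 (adjusted p of 0.153). Siglecf entered the tests through the treated groups alone, where it is high, so its comparisons with vehicle, counted above, are descriptions. The same holds for Gata1, a transcription factor gene of the list, named after its values were seen. Of the remaining eosinophil genes Prg3, a homologue of Prg2, was above background on 0 arrays. The list's summed level, in units of the 75th percentile, was 8.478 and 10.22 with vehicle, 13.01 and 11.95 with TP-16, 13.62 and 11.43 with anti-PD-1, and 17.27 and 24.72 with the combination. Its most abundant gene (here and below, the one with the highest mean over the 8 arrays), Csf2ra, codes for a chain of the GM-CSF receptor and is expressed by other myeloid cells as well. Csf2ra alone was most of the summed level on each array. With another background correction the combination raised 3 of the 10, and Siglecf then came to 0.62 and Ear1 to 0.68.

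Genes that IL-4 and IL-13 induce were next, of which 13 of 18 on the array were tested. The combination raised 8 and lowered 1, anti-PD-1 raised 4 and lowered 0, and TP-16 raised 2 and lowered 0. Their median log2 difference was 1.31 with the combination, 0.76 with anti-PD-1 and 0.45 with TP-16. Retnla, the resistin-like molecule secreted by alternatively activated macrophages, stood at −1.59 and −1.06 with vehicle, 1.91 and 2.76 with TP-16, 4.49 and 4.03 with anti-PD-1, and 4.69 and 5.07 with the combination. No group overlapped another. Retnla rose by 6.20 with the combination (log2 difference, standard error 0.35, limma adjusted p of 0.0112), by 5.58 with anti-PD-1 (adjusted p of 0.0183) and by 3.66 with TP-16 (adjusted p of 0.0516). Leaving out 1 array at a time kept the combination value between 5.94 and 6.47, and the adjusted p was at most 0.0699, without combination replicate 2.

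Pdcd1lg2, which codes for the PD-1 ligand PD-L2, stood at −2.50 and −2.18 with vehicle, −1.15 and −0.92 with TP-16, −0.47 and −1.05 with anti-PD-1, and −0.04 and 0.71 with the combination. Every treated array was above both vehicle arrays, with the combination on top. It rose by 2.68 with the combination (adjusted p of 0.0112), 1.58 with anti-PD-1 (adjusted p of 0.238) and 1.31 with TP-16 (adjusted p of 0.0998). Clec10a, a macrophage lectin, rose by 2.09 with the combination (adjusted p of 0.0129), and Postn, a matrix protein that IL-13 induces in fibroblasts, by 2.00 (adjusted p of 0.0121). Mgl2, a close relative of Clec10a and the most abundant gene of the list, went the other way without reaching a fold of 2, at −0.76 (adjusted p of 0.0125). It was looked up after its values were seen. The 1 gene that fell was Muc5ac, an airway and gut mucin, by at least 2.33-fold (adjusted p of 0.0753), also named after its values were seen. Without vehicle replicate 2 it no longer passed. Ccl22 was above background on 0 arrays.

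The receptors and signalling proteins that carry IL-4, IL-5 and IL-13 were all tested, although Irf4 was not well above background with vehicle. Irf4 entered the tests through the treated groups alone, so its comparisons with vehicle, counted below, are descriptions. Of the 15, the combination raised 5 and lowered 0, TP-16 raised 1, and anti-PD-1 changed 0 by limma at this threshold. The median log2 difference was 0.71 with the combination, 0.35 with anti-PD-1 and 0.32 with TP-16. Csf2rb, the chain that the IL-5 receptor shares with those of IL-3 and GM-CSF, rose by 1.504 with the combination (log2 difference, standard error 0.41, adjusted p of 0.0402), and its relative Csf2rb2 by 1.71 (adjusted p of 0.0141). Il2rg, the common chain of the IL-4 receptor, rose by 1.37 (adjusted p of 0.0117). Irf4, a transcription factor of helper T cells and of alternatively activated macrophages, rose by at least 4.85-fold (adjusted p of 0.0173), with a fitted log2 difference of 2.49 without vehicle replicate 1 and 4.10 without vehicle replicate 2. Gata3, the factor that defines the helper cells of this branch, rose by 1.31 (adjusted p of 0.0266), and was named after its value was seen, as the fifth gene that passed. Stat6, which carries the signal of IL-4 and IL-13, differed by 0.27 (adjusted p of 0.117, named after its value was seen). Without combination replicate 2 the number raised was 3, and Csf2rb was not among them.

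The alarmins, signals from damaged tissue that start type 2 responses, were hard to read, and of them Il33 alone was tested. Of 11 genes of alarmins and innate lymphoid cells 7 were tested, of which the combination raised 1 and lowered 1, anti-PD-1 raised 1, and TP-16 lowered 1. The median with the combination was 0.08. Il33 differed from vehicle by 0.53 (adjusted p of 0.0399) and its receptor gene Il1rl1 by 0.08 (adjusted p of 0.725), both under the fold of 2 and named after their values were seen, and Il25, Il17rb and Il9 were above background on 0 arrays. Il7r, a receptor of innate lymphoid cells and of T cells, rose by 2.25 with the combination (standard error 0.34, adjusted p of 0.0118). Areg, an epidermal growth factor family ligand that innate lymphoid and tumor cells release, fell by 2.35 (log2 difference −2.35, standard error 0.37, adjusted p of 0.0123).

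Besides the eotaxins, other chemokines were listed as possible ligands of CCR3, of which 3 of 5 were tested. Whether the mouse protein of each, Ccl8 among them, binds CCR3 was not tested. The combination raised 2, Ccl5 and Ccl8, and lowered 0, anti-PD-1 raised 2, and TP-16 raised 1. Ccl5 (RANTES, made by activated T cells) stood at 1.15 and 1.88 with vehicle, 4.14 and 3.36 with TP-16, 3.59 and 3.65 with anti-PD-1, and 5.23 and 5.93 with the combination. No treated array fell into the vehicle range, and the combination arrays lay above all others. Ccl5 rose by 4.07 with the combination (standard error 0.39, adjusted p of 0.0112), and Ccl8 by 1.33 (standard error 0.28, adjusted p of 0.0203), which without vehicle replicate 1 was 0.97 and under the fold of 2. Ccl26, eotaxin-3, was above background on 0 arrays.

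Genes of the lipoxygenase pathway around Alox15 gave 0 calls in either direction in each of the 3 comparisons with vehicle by limma, with 7 of 10 tested. Their median log2 difference with the combination was −0.15. Alox5ap, the partner protein of 5-lipoxygenase and the most abundant of them, differed by 0.53 (standard error 0.19, adjusted p of 0.0841). Pla2g4a, which frees arachidonic acid, was the 1 gene of the list with an adjusted p under 0.05, at −0.44 with the combination (adjusted p of 0.0342), and was named after its value was seen.

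The genes of the opposite, type 1 branch were measured alongside. Of 10 tested, the combination raised 7 and lowered 0, TP-16 raised 5, and anti-PD-1 raised 4. Their median log2 difference was 2.08 with the combination, 1.38 with TP-16 and 1.35 with anti-PD-1. Ifng, the cytokine of this branch, rose by 4.07 with the combination (standard error 0.96, adjusted p of 0.0280), Cxcl9 by 3.20 (adjusted p of 0.0505), and Tbx21, the factor of type 1 helper cells, by 2.91 (adjusted p of 0.0307). Vehicle replicate 1 was far below vehicle replicate 2 in each of these 3, for Ifng at −4.21 against −1.11. Without replicate 1 the differences were 2.52 for Ifng, 1.58 for Cxcl9 and 1.87 for Tbx21, and without replicate 2 they were 5.62, 4.81 and 3.95. Genes induced by IL-4 and IL-13 and genes of the type 1 branch thus both included some that rose with the combination, while 1 of the 6 tested members did, and whether the branches differ in size was not tested. With the test that the methods name, 0 of the 10 type 1 genes passed the same unadjusted threshold.

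Markers of other cell types also moved with the combination, and their part in the values above was not tested. By the fit, mast cell and basophil markers rose in 9 of 12 tested with the combination, 7 with anti-PD-1 and 1 with TP-16, and fell in 0. The 1 with TP-16 was Cd200r3, also among the 7 with anti-PD-1, and it was not well above background in either group of those comparisons, so no readable marker rose with TP-16. Their median log2 difference was 1.44, 1.25 and 0.25 in that order. Cpa3, the carboxypeptidase of mast cell granules, stood at 0.81 and 1.07 with vehicle, 1.25 and 1.46 with TP-16, 2.13 and 2.35 with anti-PD-1, and 2.70 and 3.03 with the combination. The groups did not overlap. Cpa3 rose by 1.92 with the combination (standard error 0.18, adjusted p of 0.0112) and the tryptases Tpsab1 by 1.90 (adjusted p of 0.0115) and Tpsb2 by 1.67 (adjusted p of 0.0112). Cd200r3, a receptor of basophils and mast cells, was above background with the combination alone and at least 1.27-fold higher than with vehicle (adjusted p of 0.0112). It entered the tests through that group alone, so its comparisons, counted above, are descriptions. The summed level of the list was 10.99 and 15.34 with vehicle, 14.31 and 17.36 with TP-16, 26.82 and 33.16 with anti-PD-1, and 34.16 and 40.68 with the combination, with Mcpt4 as its most abundant gene. Against TP-16 alone the combination raised 8 of the 12 by the fit, with Cd200r3 counted again as a description. In this comparison 4 members were also higher.

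Macrophage markers rose in 5 of 7 with the combination and changed in 0 with each single agent by limma, with a median of 1.04 and a summed level of 78.47 and 84.38 with vehicle, 97.07 and 84.62 with TP-16, 97.54 and 86.34 with anti-PD-1, and 129.8 and 185.8 with the combination. Csf1r was the most abundant. Adgre1, the gene of a macrophage surface receptor, rose by 2.07 (adjusted p of 0.0143), Mertk by 1.23 (adjusted p of 0.0240), Cd68 by 1.15 (adjusted p of 0.0187) and C1qb by 1.04 (adjusted p of 0.0429). The count of 5 was 1 without combination replicate 2 and 2 without vehicle replicate 1. Resident macrophage markers rose in 1 of 6 with the combination, Timd4, by 3.12 (adjusted p of 0.0228; 2.25 without vehicle replicate 1 and 3.997 without vehicle replicate 2), and 1 of 6 with anti-PD-1. Their median with the combination was 0.53, and the summed level ran from 4.93 on TP-16 replicate 1 to 12.46 on combination replicate 2, most of it Folr2. Fibroblast markers, of the cells that make Ccl11 in many tissues, rose in 3 of 6 with the combination, with a median of 0.91. Col1a1 rose by 1.97 (adjusted p of 0.0153), Col3a1 by 1.32 (adjusted p of 0.0404) and Pdgfra by 1.24 (adjusted p of 0.0112). Their summed level was 91.49 and 71.62 with vehicle, 94.36 and 81.46 with TP-16, 125.6 and 105.8 with anti-PD-1, and 159.3 and 174.3 with the combination, with Dcn as the most abundant by the mean over all 8, a rank that need not hold in each group.

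T-cell markers rose in 5 of 6 with the combination, 2 with TP-16 and 1 with anti-PD-1, with a median of 2.81 for the combination. Cd8a rose by 3.78 (adjusted p of 0.0484), Cd8b1 by 3.31 (adjusted p of 0.0532), Cd3g by 2.85 (adjusted p of 0.0715) and Cd3d by 2.78 (adjusted p of 0.0555). These values rest on the vehicle arrays: without replicate 1, on which Cd8a was not well above background, they were 1.97, 1.67, 1.25 and 1.41, and without replicate 2 they were 5.58, 4.94, 4.45 and 4.15, in the same order. Their summed level was 1.924 and 7.514 with vehicle, 12.13 and 10.16 with TP-16, 11.83 and 9.696 with anti-PD-1, and 14.7 and 25.16 with the combination, so the vehicle arrays differed from each other more than the arrays of the single agents did. Cd3d was the most abundant by the mean over all 8, a rank that need not hold on each array. Without combination replicate 2 the count of 5 was 1, and with the test that the methods name it was 0 at the same unadjusted threshold. B-cell markers fell in 2 of 4 with the combination, Ms4a1 by 2.49 (log2 difference −2.49, adjusted p of 0.0143; −3.16 without combination replicate 1 and −1.82 without combination replicate 2) and Cd79a by at least 2.25-fold (adjusted p of 0.0159). Cd79a entered the tests through vehicle and TP-16 alone, so its comparison is a description. The median of the B-cell markers was −0.49. Their summed level, most of it Cd79b except on vehicle replicate 1, was highest with the combination, opposite to the 2 markers that fell. It was 0.4834 and 0.8584 with vehicle, 0.7629 and 0.2915 with TP-16, 0.538 and 0.522 with anti-PD-1, and 0.9043 and 1.168 with the combination. Neutrophil markers fell in 2 of 7 with the combination, S100a9 (log2 difference −1.19, adjusted p of 0.0210) and S100a8 (−1.07, adjusted p of 0.0193). Their median was −0.52, and without vehicle replicate 2 the count was 0. The summed level was 75.1 and 69.32 with vehicle and 45.83 and 36.12 with the combination, with Csf3r as the most abundant.

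Tissue around the tumor and the tumor itself were followed by 3 further lists. Epidermis markers changed in 0 of 3 with each treatment by limma, with a median of −1.60 with the combination. Their summed level was 20.06 on TP-16 replicate 2 and 20.44 on anti-PD-1 replicate 2 and between 1.274 and 3.28 on the other 6 arrays. Those were also the arrays with the lower of their group's Ccr3, Ccl11 and Il5ra values, but with the higher of its Il13 values. Ccl24 was higher on TP-16 replicate 2 (−0.31 against −0.40) and lower on anti-PD-1 replicate 2 (0.94 against 1.06). A part of the epidermis in these values was not tested. Krt10, the most abundant by the mean over all 8, was not most of the sum on TP-16 replicate 2 and anti-PD-1 replicate 2. Krt10 differed by −0.78 with the combination (adjusted p of 0.407). Skeletal muscle markers changed in 0 of 4 by limma, with a median of 0.51 and Acta1, the most abundant, at 0.36 (adjusted p of 0.617), and their summed level ran from 6.806 on vehicle replicate 1 to 28.95 on anti-PD-1 replicate 1. Epithelial and colon markers fell in 3 of 5 with the combination, with a median of −1.38: Cdx2, which entered the tests through vehicle alone and so is a description, by at least 6.83-fold (adjusted p of 0.0112), Krt8 (log2 difference −2.67, adjusted p of 0.0547; −2.02 without vehicle replicate 1 and −3.32 without vehicle replicate 2) and Krt18 (−1.38, adjusted p of 0.0204). Their summed level, most of it Krt18, was 9.115 and 6.552 with vehicle, 4.909 and 6.067 with TP-16, 5.693 and 5.213 with anti-PD-1, and 3.616 and 2.46 with the combination. As markers of the labelled colon carcinoma, Krt8 and Krt18 were above background on all 8 arrays, while Vil1 was on 0 and Epcam on 1.

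**Figure D3:**
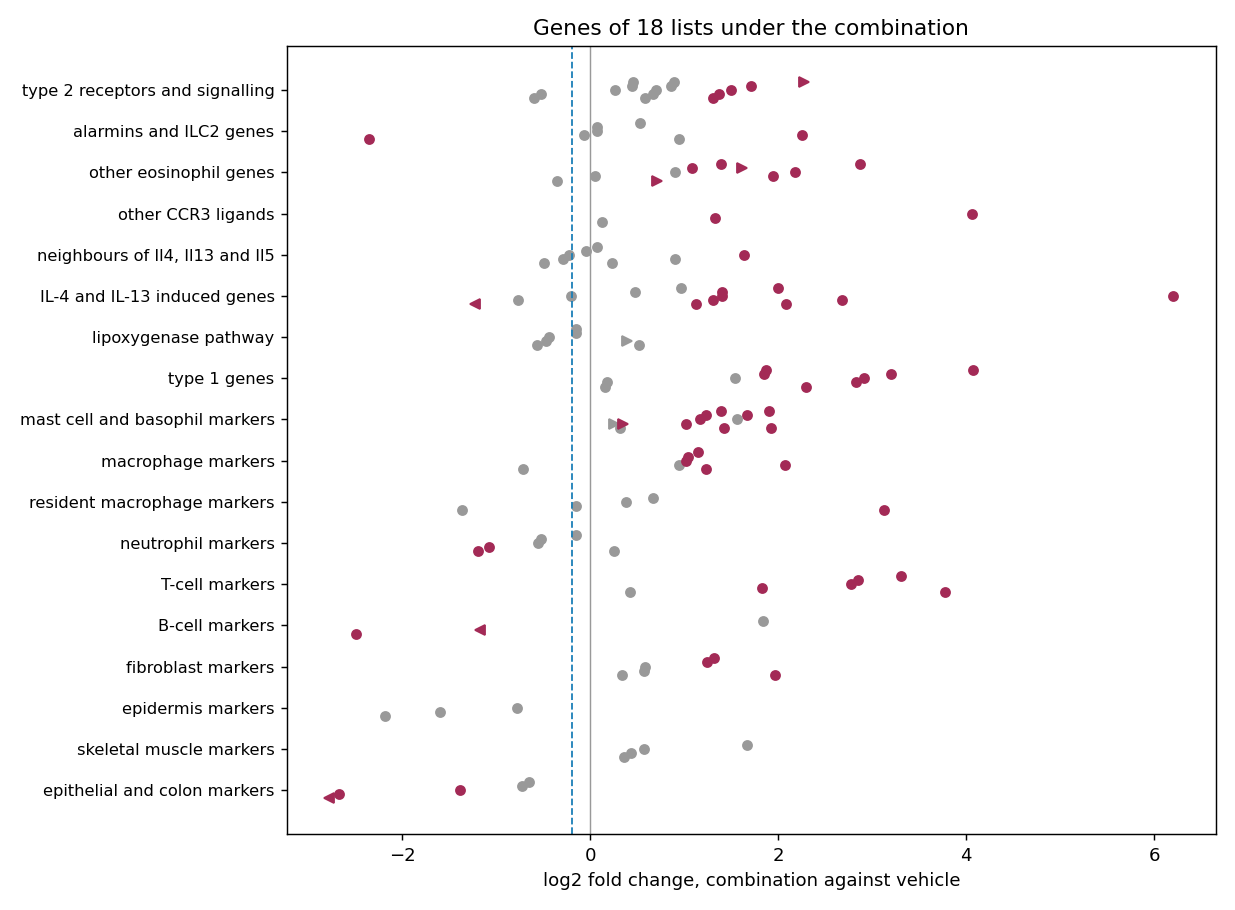
Log2 difference between the combination and vehicle for each tested gene of 18 lists (n = 2 arrays per group). Coloured marks passed a fold of 2 with an unadjusted limma p of at most 0.05, triangles are limits for genes at background in 1 of the groups, and the dashed line is the median of all tested probes, −0.19. Retnla lies farthest right at 6.20, and 9 of 12 mast cell and basophil markers and 7 of 10 other eosinophil genes are coloured. Cd200r3, among the 9, entered the tests through the combination alone and is a description. Siglecf and Gata1, among the 7, and Irf4 entered through treated groups alone and are descriptions too.

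The genes whose levels ran most like a member's over the 8 arrays were listed for the 5 members read on at least 6 arrays, among about 18262 gene names above background on all 8. For Ccl11 these included Meis1 (Pearson r of 0.988, Spearman rho of 0.976) and Nbl1 (0.986 and 0.976). For Ccl24 they were Gm14296 (0.972 and 0.881), Hist2h3c2 (0.971 and 0.881) and Arid3a (0.968 and 0.881). For Ccr3 they were Pik3r3 (0.962 and 0.952), Zfp219 (0.954 and 0.976) and Rasgrp4 (0.954 and 0.976). For Il13 they were Gm16537 (0.972 and 0.929) and Fetub (0.971 and 0.786), behind an unnamed transcript of chromosome 1 (0.982 and 0.857). For Il5ra they were Dhrs4 (0.966 and 0.857) and Jam2 (0.964 and 0.952), behind an unnamed transcript (0.982 and 0.976). With 8 arrays and so many candidates, high values arise for any gene, and no p-value is attached.

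Members and the named genes of eosinophils were compared by the letters of their promoters, read from a RefSeq table of the GRCm38.p6 build with a window of 300 bases around the start of each gene. Of the 10 members 6 had a window (Il4 has more than 1), and Ccl11, Ccl24, Prg2 and Alox15 had none. The letters TTC and GAA with any 4 bases between them (TTC-4-GAA), a spacing bound by STAT6, read the same on both strands and were found in 2284 of 32851 windows (6.95%). GATAA, the core letters bound by GATA factors, or its reverse TTATC was found in 8347 (25.4%). TTC-4-GAA occurred in 3 of the 6 members, Il4, Il5ra and Epx, and GATAA or TTATC in 4, Il4, Il13, Il5ra and Ccr3. All 4 named eosinophil genes, Siglecf, Ear1, Ear2 and Ear10, held GATAA or TTATC and 0 of the 4 held TTC-4-GAA. Of the 3 named genes induced by IL-4 and IL-13 that had a window, Retnla and Pdcd1lg2 held TTC-4-GAA, and Postn did not. A match describes the letters only and is neither a binding site nor a cause.

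The windows shown are those of the receptors Il5ra and Ccr3, which were higher with the combination than with TP-16, of Il13, the cytokine that could be read, and of Siglecf, Retnla and Pdcd1lg2, which rose with the combination. Capitals mark TTC-4-GAA and GATAA or TTATC. Each is written 5′ to 3′ on the strand of its gene: Il5ra at chr6:106748988-106749287 on the minus strand, Ccr3 at chr9:124021721-124022020 on the plus strand, Il13 at chr11:53634653-53634952 on the minus strand, Siglecf at chr7:43351091-43351390 on the plus strand, Retnla at chr16:48842359-48842658 on the plus strand and Pdcd1lg2 at chr19:29410669-29410968 on the plus strand.
Il5ra: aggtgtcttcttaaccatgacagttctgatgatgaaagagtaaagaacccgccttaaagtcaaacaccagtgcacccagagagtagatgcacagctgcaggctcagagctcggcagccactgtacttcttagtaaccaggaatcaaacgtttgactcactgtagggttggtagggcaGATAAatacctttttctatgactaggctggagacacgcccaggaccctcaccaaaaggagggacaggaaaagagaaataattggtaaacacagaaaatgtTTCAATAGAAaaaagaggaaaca
Ccr3: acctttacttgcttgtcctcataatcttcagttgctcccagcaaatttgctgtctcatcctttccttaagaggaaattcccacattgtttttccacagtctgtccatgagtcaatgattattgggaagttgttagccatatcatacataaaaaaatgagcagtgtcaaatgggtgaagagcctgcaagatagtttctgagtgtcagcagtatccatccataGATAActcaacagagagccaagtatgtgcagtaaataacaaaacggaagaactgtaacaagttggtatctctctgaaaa
Il13: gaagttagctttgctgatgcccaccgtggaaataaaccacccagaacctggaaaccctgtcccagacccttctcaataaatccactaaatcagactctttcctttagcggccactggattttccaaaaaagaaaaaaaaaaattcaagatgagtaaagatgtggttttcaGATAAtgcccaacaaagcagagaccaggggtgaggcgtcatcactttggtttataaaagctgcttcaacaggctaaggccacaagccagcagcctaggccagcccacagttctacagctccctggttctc
Siglecf: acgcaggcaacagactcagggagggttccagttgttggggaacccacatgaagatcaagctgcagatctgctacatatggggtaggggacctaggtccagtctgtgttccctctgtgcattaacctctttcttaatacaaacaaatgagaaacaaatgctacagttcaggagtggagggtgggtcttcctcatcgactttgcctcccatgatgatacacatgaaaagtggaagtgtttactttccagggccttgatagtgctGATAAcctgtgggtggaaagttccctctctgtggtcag
Retnla: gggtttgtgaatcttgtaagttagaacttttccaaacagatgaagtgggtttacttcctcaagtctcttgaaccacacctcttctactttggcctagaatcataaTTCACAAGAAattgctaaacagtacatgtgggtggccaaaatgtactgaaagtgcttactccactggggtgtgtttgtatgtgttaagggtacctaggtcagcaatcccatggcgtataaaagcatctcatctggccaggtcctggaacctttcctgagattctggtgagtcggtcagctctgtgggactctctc
Pdcd1lg2: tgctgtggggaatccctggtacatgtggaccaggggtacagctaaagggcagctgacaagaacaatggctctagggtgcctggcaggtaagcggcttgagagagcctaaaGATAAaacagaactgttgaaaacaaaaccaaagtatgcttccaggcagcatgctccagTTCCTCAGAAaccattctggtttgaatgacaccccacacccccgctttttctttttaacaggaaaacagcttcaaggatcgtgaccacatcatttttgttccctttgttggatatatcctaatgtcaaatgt
Il5ra and Pdcd1lg2 hold both motifs, and each of the other 4 windows holds 1.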

How the data were processed

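For each array the authors deposited the output of the scanner, where Feature Extraction 10.7.1.1 had already subtracted the background from the intensity of each spot and removed its spatial trend. A table of log2 values, also deposited, does not name its normalization. Its sorted columns differ by at most 0.00115 between arrays and correlate with the log2 intensity at 0.995 to 1. It was used as an alternative only.

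Removing control spots left 59305 of 62976 spots. Spots with an outlier mark (959 over the 8 arrays) were not used, which left 38 probes without a value on some array, and these were dropped. Each array's 75th percentile over non-control spots was subtracted on the log2 scale, and spots of 1 probe were averaged. The test covered the 31912 of 56567 probes marked well above background on both replicates of some group. All 8 arrays entered 1 fit in limma 3.58.1 (R 4.3.3, data.table version 1.17.8), with 1 mean per group, 4 residual degrees of freedom and Benjamini-Hochberg adjustment over all tested probes. Where 1 group was not above background on either array, its lowest marked level gives the limit written as "at least". Motifs and figures used Python 3.11.15, pandas 2.3.3, numpy 2.4.6 and matplotlib 3.10.9.

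A member is read by its probe with the highest mean over the 8 arrays (9 of 10 members have 1 probe), and the accessions of 11 of 11 member probes match the symbol in the RefSeq table. From each of the 18 lists (159 genes, 158 on the array, 133 tested), genes past the threshold (fold 2, unadjusted p 0.05) in any comparison with vehicle were named. No more than 4 per list were taken, by the size of the combination's log2 difference, or the most abundant gene (highest mean over the 8 arrays) where none passed. The members and lists were chosen with earlier results of these data known. The lists cover receptors and signalling, alarmins and innate lymphoid cells, other eosinophil genes, other CCR3 ligands, neighbours of the cytokine genes, IL-4 and IL-13 induced genes, the lipoxygenase pathway, type 1 genes, and markers of mast cells and basophils, macrophages, resident macrophages, neutrophils, T cells, B cells, fibroblasts, epidermis, muscle and colon epithelium.

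The levels were recomputed with quantile normalization, with normexp (offset 50) and with the log2 values of the authors. Dim probes were kept, or the filter was tightened to all 8 arrays. The fit was repeated with a block for the replicate number, with trended and robust moderation, on the 2 compared groups alone and without each array in turn. The t-test of the methods, the other Il5ra probe and an adjusted p as threshold for the combination were also tried. A percentile over probes in place of spots, and the alternatives for the lists, were added after seeing the data. The labels do not say whether replicate numbers pair samples. Residuals of arrays with the same number correlated at −0.193 to 0.29 between groups, which with 2 arrays per group cannot decide it. The calculations were tested on simulated data.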

Additional observations from a re-analysis of the deposited data

Results flagged for a closer look

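The departure from additivity tests the difference between the effect of 1 agent alone and its effect beside the other. It had an unadjusted limma p under 0.05 for 7 of the genes that were named by the rule and could be read in every group. None passed limma's adjusted p. Of all 31912 tested probes, 2316 had such an unadjusted p. The list genes were named by their differences from vehicle, which enter the departure, so the count of 7 is a description. The member among the 7 was Ccl24, with 0.98 on the log2 scale (adjusted p of 0.433). Il5ra and Alox15 also had such an unadjusted p, and rest on groups at background. For Ccl24 the difference was −0.99 for TP-16 against vehicle and −0.0029 for the combination against anti-PD-1.

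Of the other genes, Retnla departed by −3.04 (adjusted p of 0.383), Ear2 by −1.35 (adjusted p of 0.528) and P4ha2 by −0.95 (adjusted p of 0.433), less with both agents than the single effects add up to. The macrophage gene Mertk departed by 1.22 (adjusted p of 0.583), the neutrophil genes S100a9 by −1.07 (adjusted p of 0.602) and S100a8 by −0.96 (adjusted p of 0.585). All 7 use the same 8 arrays, and 2 arrays per group limit each value.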

How the results depend on the processing

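Of the members' single values 295 kept their direction and their side of the threshold, 16 turned sign, 9 came past the threshold and 3 dropped below it; of the values of the named list genes 796 kept both, 58 dropped below the threshold, 3 came past it and 1 turned sign. The cause was not tested for any change given here. For TP-16 against vehicle, where 1 member passed, the number was 0 with quantile normalization, with normexp, with the authors' values and with the filter to all 8 arrays (which leaves only Ccl11 and Ccl24 of the members), 2 without a filter (Il5ra and Epx), and 1 to 2 with single arrays left out. For anti-PD-1, 0 became 0 to 1 with arrays left out. For the combination, 1 became 2 with quantile normalization and with the authors' values (Ccl11 and Alox15), 2 without a filter (Ccl11 and Epx), and 1 to 2 with arrays left out. For the combination against TP-16, 4 became 2 with normexp, 2 with the filter to all 8 arrays, 2 with the t-test of the methods, and 2 to 5 with arrays left out. For the combination against anti-PD-1, 0 became 0 to 3 with arrays left out. With the replicate number as a block, which treats equal numbers as pairs, the counts were 1, 0, 1, 4 and 0, as without it. The percentile over probes, chosen after seeing the data, changed no member count.

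All values that turned sign had missed the threshold. With quantile normalization the log2 difference with anti-PD-1 was 0.12 for Il13, 0.25 for Il5ra and 0.25 for Ccr3, and with the combination 0.085 for Il5ra; the authors' values gave 0.12, 0.25, 0.25 and 0.086. With normexp Ccr3 was −0.18 with the combination. With single arrays left out, Il13 ran from −1.30 to 0.14 (without vehicle replicate 2) for TP-16, and from −0.93 to 0.66 for anti-PD-1, with 0.59 without vehicle replicate 2 and 0.66 without anti-PD-1 replicate 1. Ccr3 ran from −0.77 to 0.49 for anti-PD-1, with 0.22 without vehicle replicate 2 and 0.49 without anti-PD-1 replicate 2. The departure from additivity of Il13 ran from −0.98 to 0.61, with 0.54 without vehicle replicate 1 and 0.61 without anti-PD-1 replicate 2. Acta1 ran from −0.22 (without vehicle replicate 1) to 0.95 with the combination.

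Ccl11 passed the unadjusted threshold with the combination under all alternatives, with log2 differences of 1.43 to 1.90 when single arrays were left out. Its adjusted p, 0.0051 to 0.182 over the alternatives, was 0.182 with the t-test of the methods and 0.0669 in a fit of 2 groups. Without combination replicate 2, 0 of 31912 probes passed limma's adjusted p in that comparison (2944 passed the unadjusted threshold). The median of all tested probes, −0.19, moved to −0.013 with quantile normalization, −0.31 with normexp and −0.59 without a filter. With the t-test of the methods the number raised by the combination was 0 in place of 7 of 10 for type 1 genes and 0 in place of 5 of 6 for T-cell markers. Neither that test nor the fit of 2 groups gives a departure, and the other Il5ra probe gives no value. A group left with 1 array is assumed to vary like the others. Signal over background limits Il4, Il5, Prg2, Epx and Alox15 most.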
